A study of Mus musculus with 8 samples.

Results

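The nuclear receptor genes described here are 39 mouse genes for ligand-activated or orphan receptors, without the estrogen related receptors, whose inhibition was the subject of the study. The values come from the CpG cytosines with at least 10 reads in all 8 libraries that lay in the gene or in the 2000 bp upstream of an annotated start (GENCODE M21 on GRCm38). This rule gave 1925 of the 567886 cytosines kept in the series, in 38 of the 39 genes. No cytosine of Nr0b2 was kept. Of the 1925 cytosines, 1068 lay within 2000 bp upstream of any annotated start, inner starts included, and are called the start-site regions. The remaining 857 are called the gene bodies.

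Reduced representation bisulfite sequencing (RRBS) was carried out on tumors of NIC-5231, a line from ErbB2-driven mouse mammary tumors, grown in the mammary fat pad of immunodeficient NSG mice that were 5 to 7 weeks old when injected with cells. Intraperitoneal injections were given every 2 days to 4 groups of 5 mice. The groups received vehicle (named DMSO in the sample titles), C29 (10 mg/kg body weight), 5-azadC (1 mg/kg body weight) and C29+5-azadC with both drugs at these doses. Tumor DNA of 2 mice was pooled for each library, with 2 libraries a group, so p-values measure only the spread between such pools. All 8 libraries came from 1 cell line in 1 mouse strain, and DNA of mouse host cells cannot be told apart from DNA of the mouse tumor cells. A library held between 51359825 and 81299065 reads summed over its cytosines, with a median of 21 to 30 reads per listed cytosine. Unmethylated control DNA read as 0.216% to 0.329% methylated and methylated control DNA as 97.5% to 98.3%. Squared differences between the 2 libraries of a group averaged 12.8 to 13.4 times the variance expected from read sampling, so reads within a library are not independent and intervals from reads cover counting error only. The RRBS libraries hold no expression values, so the tumor label was not checked against marker genes.

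Nuclear receptors are transcription factors with a zinc finger domain that binds DNA and a domain that, in many members, binds a small lipophilic ligand. Steroid receptors bind DNA mostly as homodimers, whereas the receptors for thyroid hormone, retinoic acid, vitamin D, fatty acids, oxysterols, bile acids and xenobiotics pair with a retinoid X receptor (RXR) on repeats of the half-site AGGTCA. Orphan members such as the NR4A, NR5 and NR2 groups bind a similar half-site alone or as dimers. C29 inhibits ERRα, itself an orphan of the same superfamily, and the nucleoside 5-azadC (decitabine) traps DNA methyltransferases on DNA. Methylation is usually absent from CpG-rich start sites and high in the bodies of genes. In bulk tumor DNA, a lower percentage in every cell and a smaller share of methylated cells cannot be told apart.

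The following sequences are those on which the results turn, each named for a start of its region that it need not hold. They are unmethylated windows near first starts, methylated windows at or upstream of inner starts, and a CpG-rich but methylated window of Nr5a1. They were read from GRCm38 on the strand of the gene, 5′ to 3′, and capitals mark the CpGs whose methylation was measured in all 8 libraries. Nr1h2 (liver X receptor β, an oxysterol receptor on the minus strand of chromosome 7) is shown just upstream of the gene at chr7:44553950-44554045, in a noncoding exon at chr7:44552276-44552404 (inner start A), and in a stretch of coding exon and intron at chr7:44551865-44552062 (inner start B). Nr2c2 (testicular receptor 4, plus strand) is shown in an intron at chr6:92091951-92092250, between its starts at 92091390 and 92092433. Its coding exon at chr6:92163118-92163278 is shown as well, upstream of the inner start at 92164177.
Nr1h2 first start: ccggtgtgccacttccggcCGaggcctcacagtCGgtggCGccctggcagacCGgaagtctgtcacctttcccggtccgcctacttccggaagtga
Nr1h2 inner start A: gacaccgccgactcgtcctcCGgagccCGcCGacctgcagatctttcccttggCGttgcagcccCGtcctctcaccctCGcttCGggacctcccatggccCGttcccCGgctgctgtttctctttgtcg
Nr1h2 inner start B: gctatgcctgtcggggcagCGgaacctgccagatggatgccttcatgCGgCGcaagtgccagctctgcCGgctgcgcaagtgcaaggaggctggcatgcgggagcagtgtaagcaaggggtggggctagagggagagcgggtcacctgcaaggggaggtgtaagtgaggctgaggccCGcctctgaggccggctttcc
Nr2c2 first start: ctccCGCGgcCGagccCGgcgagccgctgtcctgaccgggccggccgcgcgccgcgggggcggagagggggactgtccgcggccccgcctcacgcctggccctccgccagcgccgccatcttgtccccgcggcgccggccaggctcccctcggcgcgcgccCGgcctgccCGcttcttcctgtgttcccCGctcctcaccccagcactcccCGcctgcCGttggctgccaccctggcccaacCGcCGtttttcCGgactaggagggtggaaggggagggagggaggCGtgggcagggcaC
Nr2c2 inner start: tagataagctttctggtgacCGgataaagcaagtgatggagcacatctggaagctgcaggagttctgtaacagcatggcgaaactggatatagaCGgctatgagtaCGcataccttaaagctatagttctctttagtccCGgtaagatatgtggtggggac
The remaining sequences are from Nr4a3 and Nr4a1 (immediate-early orphan receptors, plus strand), Nr5a1 (steroidogenic factor 1, minus strand) and Vdr (the vitamin D receptor, minus strand). They include an intron of Nr4a3 at chr4:48048110-48048187, upstream of the inner start at 48049114, and the region just upstream of Nr4a1 at chr15:101253917-101254216. The others are an intron of Nr5a1 at chr2:38711696-38711857, downstream of the start at 38712234, and an intron of Vdr at chr15:97896925-97897029, upstream of an inner start.
Nr4a3 inner start: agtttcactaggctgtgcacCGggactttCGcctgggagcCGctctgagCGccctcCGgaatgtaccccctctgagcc
Nr4a1 first start: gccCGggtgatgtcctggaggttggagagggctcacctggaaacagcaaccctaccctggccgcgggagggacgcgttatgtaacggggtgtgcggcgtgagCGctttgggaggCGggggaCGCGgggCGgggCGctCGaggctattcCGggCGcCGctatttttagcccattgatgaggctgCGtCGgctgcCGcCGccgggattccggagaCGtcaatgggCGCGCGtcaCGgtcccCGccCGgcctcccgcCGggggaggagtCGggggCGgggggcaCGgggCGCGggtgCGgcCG
Nr5a1 start: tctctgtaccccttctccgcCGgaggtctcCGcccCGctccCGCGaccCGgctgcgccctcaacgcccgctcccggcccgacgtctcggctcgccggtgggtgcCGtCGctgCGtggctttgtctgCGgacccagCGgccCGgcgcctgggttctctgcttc
Vdr inner start: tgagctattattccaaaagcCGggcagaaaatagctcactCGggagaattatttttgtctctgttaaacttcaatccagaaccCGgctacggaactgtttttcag
The windows named for the first starts of Nr1h2, Nr2c2 and Nr4a1 held between 9 and 40 CpGs and were nearly unmethylated. Without 5-azadC their mean methylation was 0% over 4 cytosines of Nr1h2, 0.566% over 15 cytosines of Nr2c2 and 0.0829% over 37 cytosines of Nr4a1. The inner-start windows of Nr1h2 and Nr2c2 were heavily methylated, at 94.6% in Nr1h2 inner start A, 97.0% in inner start B and 95.4% in the inner window of Nr2c2. The Nr5a1 window was methylated at 48.2% although it holds 23 CpGs in 162 bases. In the 300 bp promoters of RefSeq (GRCm38), the half-site AGGTCA, searched on both strands, was present in 11 of 51 promoters of the 35 receptor genes that matched (21.6%), against 16.3% of all 32851 promoters. The longer element TCAAGGTCA, which contains the half-site, was in 0 of these 51 promoters and in 0.423% of all promoters.

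Start sites of most nuclear receptor genes were weakly methylated in every group. Of the 31 genes with a start-site cytosine, 28 had at least 3 and were tested. The mean over all 8 libraries was below 5% in 13 of these 28 genes, between 5% and 50% in 14, and above 50% only in Nr5a1. The 5 lowest tested genes were Nr1d1 (REV-ERBα, a repressor of the circadian clock) at 0.0725%, Nr1h3 (liver X receptor α) at 0.0885%, Nr3c1 (the glucocorticoid receptor) at 0.191%, Nr4a2 (NURR1) at 0.345% and Nr6a1 (germ cell nuclear factor) at 0.440%. In Nr1d1 no methylated read was seen in 7 libraries, with as few as 36 reads over its 3 cytosines, which allows a level of up to 8.33%. In Nr1h3 no methylated read was seen in 6 libraries, with at least 178 reads each, which allows up to 1.69%. Nr3c1 was read with 1389 to 3063 reads per library over 44 cytosines and lay between 0% and 0.776%. Nr4a2 lay between 0% and 1.04% and Nr6a1 between 0% and 1.87%. Libraries with and without drugs overlapped in all 5 of these genes.

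Among the tested genes, the most methylated start-site regions belonged to Nr5a1, Vdr, Nr1h2, Nr5a2 (liver receptor homolog 1) and Pparg (the adipocyte receptor PPARγ). Nr5a1 measured 66.4% and 61.1% with vehicle, 64.8% and 38.8% with C29, 49.5% and 55.6% with 5-azadC, and 62.3% and 47.3% with both drugs. Nr5a2 measured 52.4% and 41.0% with vehicle, 52.4% and 34.8% with C29, 38.7% and 43.8% with 5-azadC, and 40.3% and 47.9% with both. Pparg measured 44.8% and 36.6% with vehicle, 29.1% and 30.6% with C29, 27.1% and 35.4% with 5-azadC, and 42.5% and 30.7% with both. In these 3 genes the 4 libraries with 5-azadC overlapped the 4 without it, and the 4 with C29 overlapped the 4 without it. Regions with only 2 cytosines were not tested. These were Nr2e3 (a photoreceptor-specific orphan) at a mean of 69.2%, Nr1d2 (REV-ERBβ) at 63.8% and Ppard (PPARδ) at 41.1%. The 8 libraries spread over 39.6% to 100% in Nr2e3 and 31.4% to 100% in Nr1d2. The 8 genes without a start-site cytosine were Nr1h4, Nr1i2, Nr1i3, Rxrg, Rorb, Hnf4a, Hnf4g and Nr0b2, of which Nr1h4 (the bile acid receptor), Nr1i2 and Nr1i3 (the xenobiotic receptors), Hnf4a, Hnf4g and Nr0b2 are best known from liver or gut.

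**Figure D1:**
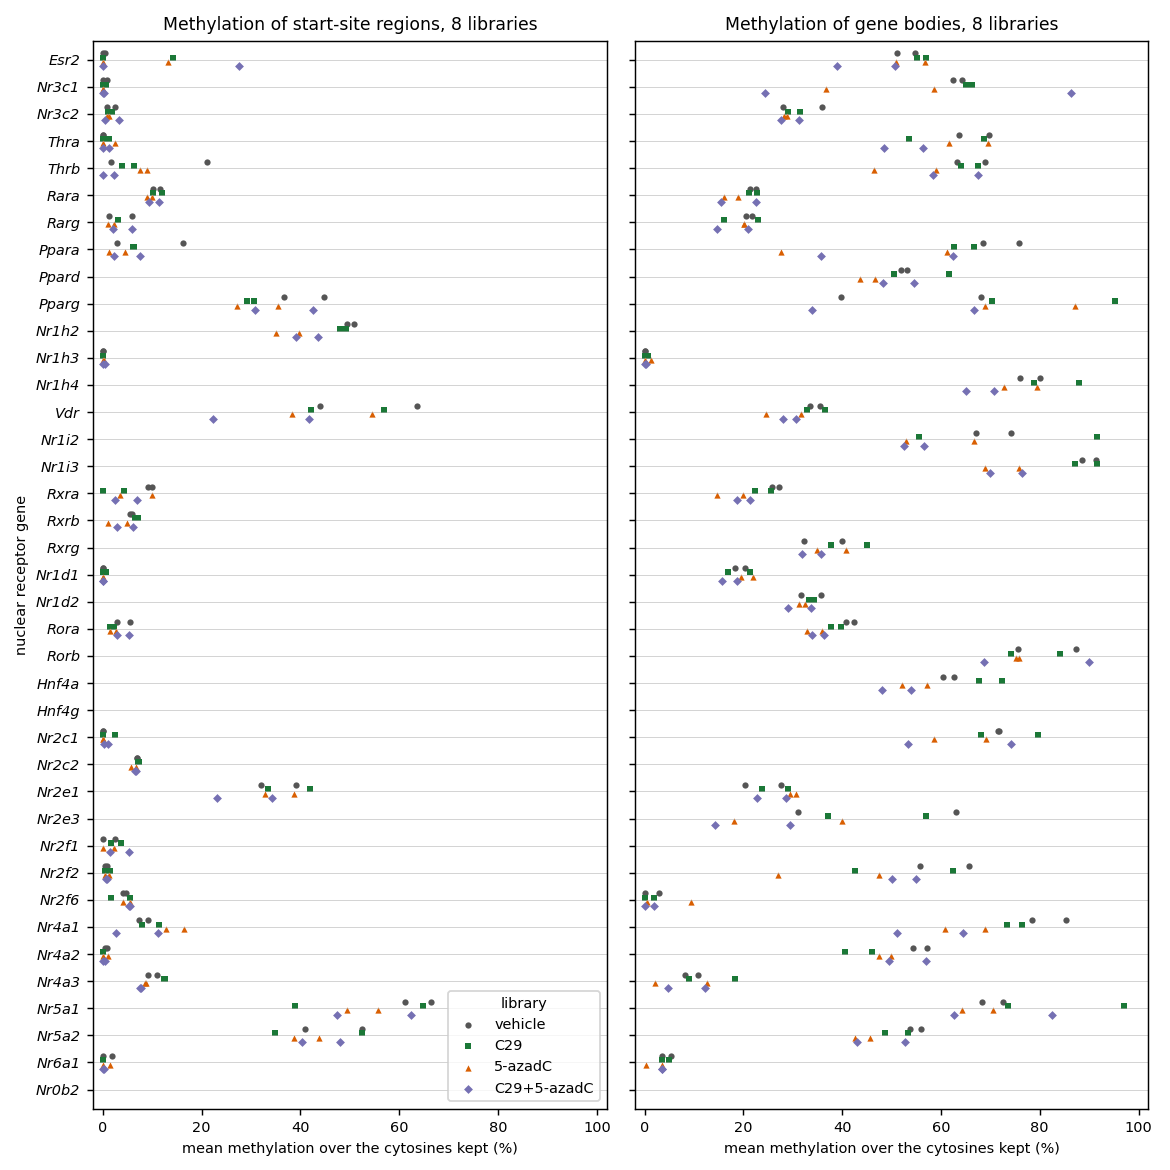
Mean methylation (%, x axis) of the start-site region (left) and gene body (right) of each nuclear receptor gene with at least 3 cytosines, with 1 point per library coloured by group. Most start-site regions lie below 10%, whereas 17 of 33 gene bodies average 50% or more, and genes without points had fewer than 3 cytosines.

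Starts with many CpGs around them were mostly unmethylated, and starts with fewer were more often methylated. Neighbouring starts of a gene can share cytosines, as in Nr1h2 and Pparg, so the counts are not of independent starts. Starts were grouped by the CpGs in the 300 bases around them (250 before and 50 from the start on), and the level was the mean over starts with at least 3 cytosines kept. The 55 receptor starts with 15 or more CpGs, in 21 genes, averaged 7.45% ± 0.977 (SD, n = 4 libraries) without 5-azadC and 6.52% ± 0.417 with it, and 48 of them (87.3%) lay below 10%, against 89.3% of such starts over all genes. The 7 starts with 5 to 14 CpGs, in 5 genes, averaged 40.4% without and 38.5% with 5-azadC. Without 5-azadC, 2 of them (28.6%) lay below 10%, against 52.9% of such starts over all genes. Only 1 start with fewer than 5 CpGs was covered, that of Hnf4a (hepatocyte nuclear factor 4α) at position 163506808 of chromosome 2, with 75.0% without and 57.8% with 5-azadC over 3 cytosines. The other 7 CpG-rich starts were at or above 10% without 5-azadC. They included 2 inner starts of Nr1h2 on chromosome 7, at 44551965 (98.9% without and 84.6% with 5-azadC) and 44552245 (94.6% and 75.2%), the start of Nr5a1 at 38712234 (67.1% and 63.3%), an early start of Pparg at 115362292 (57.3% and 60.5%) and an inner start of Nr4a1 at 101266846 (22.6% and 31.0%). The remaining ones were a start of Thrb at 17660532 (15.6% and 0%, over 3 cytosines) and a start of Ppara at 85736131 (13.2% and 2.16%, over 4 cytosines).

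**Figure D2:**
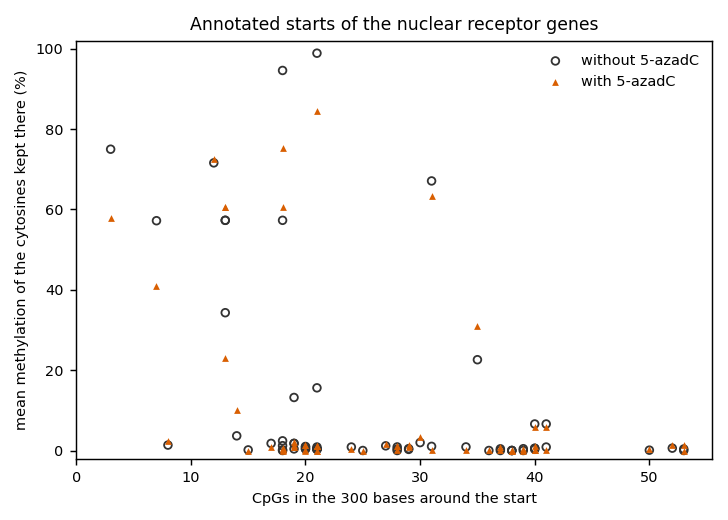
Each annotated start of a nuclear receptor gene with at least 3 cytosines kept, by the CpGs in the 300 bases around it (x axis) and its mean methylation (%, y axis), as open circles for the 4 libraries without 5-azadC and triangles for the 4 with it. Of the 55 starts with 15 or more CpGs, 48 lie below 10%, and the 7 exceptions belong to Nr1h2, Nr5a1, Pparg, Nr4a1, Thrb and Ppara.

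Whether 5-azadC moved the methylation of receptor genes was asked with the 4 libraries that received 5-azadC against the 4 that did not. The receptor gene bodies averaged 45.86% and 48.56% with vehicle, 47.27% and 48.77% with C29, 41.42% and 41.16% with 5-azadC, and 40.6% and 40.23% with both drugs, over the 33 genes with at least 3 body cytosines. All 4 libraries with 5-azadC thus lay below all 4 without it, at 40.85% ± 0.5399 against 47.62% ± 1.344 (SD, n = 4), a difference of -6.763 points. The same difference over all 17086 gene bodies was -4.412 points. When bodies needed at least 10 cytosines, the difference over the receptor genes was -4.34 points. With at least 20 reads per cytosine it was -4.54 points. Under these stricter limits the difference over all gene bodies was not computed, so these values cannot be set beside -4.412 points. The receptor start-site regions averaged 11.5% ± 0.9182 with and 12.96% ± 0.8823 without 5-azadC, and here the libraries overlapped. Of the 33 gene bodies, 29 were lower with 5-azadC, with a median difference of -5.34 points, beside 77.7% of all gene bodies and a median of -3.13 points. Of the 28 start-site regions, 20 were lower, with a median of -0.300 points, beside 60.8% of all genes and a median of -0.252 points.

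No receptor gene passed the test across all genes in either region. In limma at an adjusted p below 0.05, the count for 5-azadC was 0 of 28 start-site regions, where 0.0782% of all genes were called, and 0 of 33 gene bodies, where 0.00585% were called. edgeR also called 0 receptor genes in either region, and its share over all genes is not reported here. At an unadjusted p below 0.05 there were 2 start-site regions, Nr1h2 and Nr4a3, beside a background of 8.27%, and 6 gene bodies, Nr1i3, Hnf4a, Nr4a1, Rxra, Rora and Nr1h4, beside a background of 19.1%. All 4 libraries with 5-azadC lay below all 4 without it in 3 start-site regions (Nr1h2, Nr2c2 and Nr4a3; background 4.25%) and in 7 gene bodies (Ppara, Vdr, Nr1i3, Rxra, Rora, Hnf4a and Nr4a1; background 12.6%). They lay above all 4 in 0 start-site regions (background 0.491%) and 0 gene bodies (background 0.246%). When the reads of a region were summed instead of averaging cytosines, groups without overlap were found only in the start-site region of Rara and the body of Nr1i3.

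**Figure D3:**
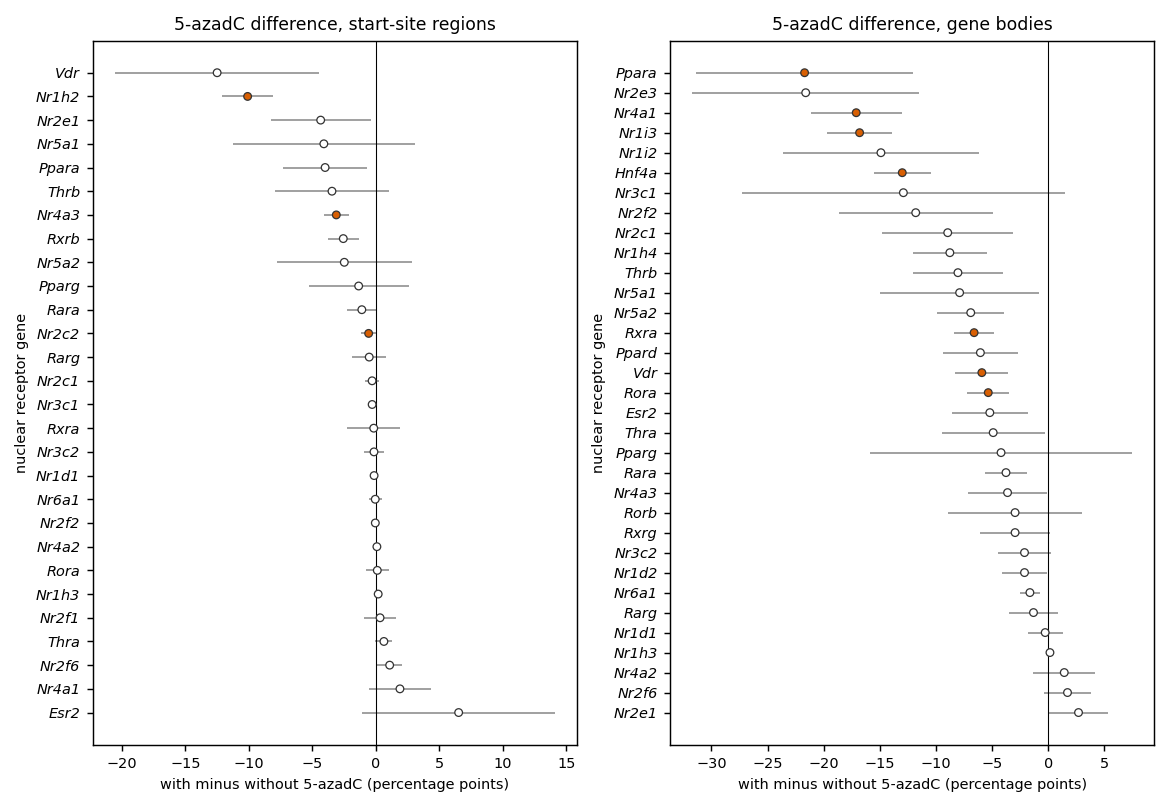
Difference in mean methylation between the 4 libraries with and the 4 without 5-azadC (percentage points, x axis) for each tested nuclear receptor gene, with bars of 1 standard error from limma and filled points where the libraries did not overlap. In the start-site regions 20 of 28 points lie below 0 and in the gene bodies 29 of 33, and none passed the adjusted test.

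In points, the difference was largest in cytosines that were methylated and far downstream of a start. A low level leaves little room for a fall in points, so classes of low methylation cannot show a large one. Cytosines 2000 bp to under 10000 bp downstream of the nearest start averaged 75.0% ± 2.30 without and 65.9% ± 4.46 with 5-azadC (97 cytosines, 18 genes), and those 10000 bp or more downstream 76.7% ± 1.14 and 68.6% ± 2.56 (158 cytosines, 21 genes). The libraries did not overlap in either class, nor in the 325 cytosines more than 500 bp and up to 2000 bp upstream, which averaged 26.7% ± 0.584 without and 23.7% ± 1.54 with 5-azadC. Within 500 bp upstream the means were 9.60% and 9.23% (464 cytosines), and within 500 bp downstream 11.6% and 9.82% (641 cytosines), with overlap in both. By annotation, coding exons averaged 52.2% without and 47.8% with 5-azadC and introns 25.9% and 22.9%, without overlap. Exons of UTRs averaged 11.9% and 10.5%, with overlap. The whole series was not read by distance or annotation, so these separations cannot be called particular to receptor genes. To compare levels without choosing on the compared values, cytosines were sorted by vehicle library 1 and read in the other 7 libraries. The 283 receptor cytosines at 80% or above averaged 83.9% ± 2.71 without (n = 3 libraries) and 75.3% ± 3.77 with 5-azadC (n = 4), and all such cytosines of the series 86.6% and 79.0%. The 1284 receptor cytosines below 20%, which were 66.7% of the receptor cytosines, averaged 3.13% and 2.67%. In both classes the 4 libraries with 5-azadC lay below the other 3. The 358 receptor cytosines from 20% to under 80% averaged 49.9% and 44.8%, with overlap. Over all cytosines of the series, the libraries did not overlap in any of these classes.

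**Figure D4:**
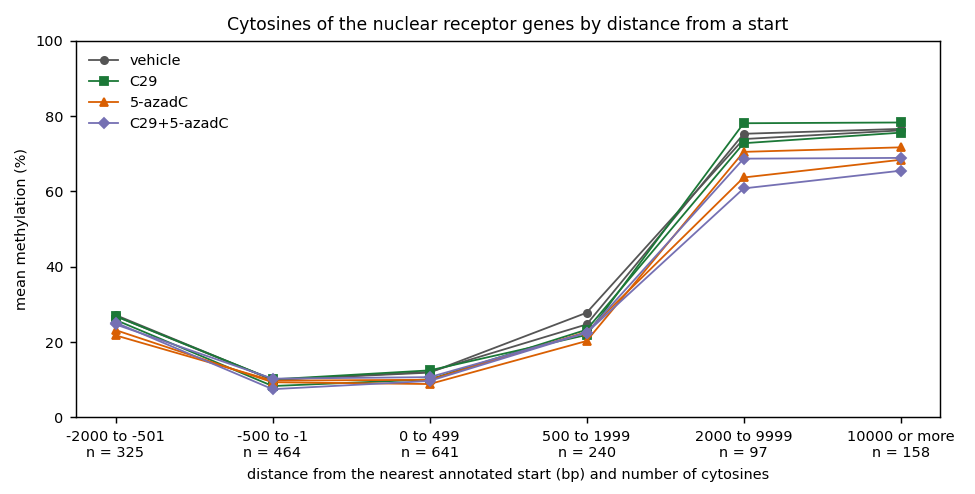
Mean methylation (%, y axis) of the cytosines of the nuclear receptor genes by distance from the nearest annotated start (x axis, with the number of cytosines), with 1 line per library coloured by group. The 4 libraries with 5-azadC lie below the other 4 from 2000 bp downstream on and, by less, more than 500 bp upstream, and overlap them in the 3 classes between.

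In the accounts of single genes, groups that were apart or overlapped are the 4 libraries with and the 4 without 5-azadC. Among the receptors that pair with RXR, Nr1h2 had the largest difference of a tested start-site region with groups apart. Its region, with 29 cytosines, measured 49.4% and 50.9% with vehicle, 48.1% and 49.3% with C29, 35.0% and 39.8% with 5-azadC, and 43.5% and 39% with both drugs. The 4 libraries with 5-azadC lay below the other 4, with a limma difference of -10.1 points ± 2.01 (SE; unadjusted p = 0.00414, adjusted p = 0.329). The gene held 2 kinds of stretch, whose sequences stand above. Its 14 cytosines around the first starts were at 0.198% without and 0.680% with 5-azadC. Inner start B, in a coding exon, measured 98.5% and 99.3% with vehicle, 94.9% and 95.4% with C29, 67.1% and 87.1% with 5-azadC, and 66.7% and 82.5% with both. Inner start A measured 92.9% and 98.0%, 92.2% and 95.3%, 68.1% and 71.5%, and 92.9% and 68.4% in the same order. The groups were apart in inner start B, and 1 combination library overlapped the others in inner start A. The difference of the region thus lay in its inner stretches, and its first starts were below 3% in every library.

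Vdr had the largest mean difference of the tested start-site regions but a wide spread. Its 8 cytosines averaged 44.0% and 63.6% with vehicle, 42.2% and 56.9% with C29, 54.5% and 38.3% with 5-azadC, and 41.7% and 22.2% with both drugs. The groups overlapped, and limma gave -12.5 points ± 8.04 (SE; adjusted p = 0.742) for 5-azadC and -9.34 points ± 8.04 (adjusted p = 0.846) for C29. The 4 cytosines of the printed Vdr window were at 57.2% ± 18.6 without and 40.9% ± 22.3 with 5-azadC. In the body of Vdr, over 35 cytosines, the groups were apart at 34.6% ± 1.73 and 28.7% ± 3.22, a difference of -5.91 points ± 2.36 (SE; limma, adjusted p = 0.265).

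Nr1i3 (CAR, a xenobiotic sensor of liver) had no start-site cytosine, and its 8 body cytosines lay in 1 stretch of coding exon at chr1:171216773-171216939, where the gene Tomm40l overlaps it. They measured 91.4% and 88.6% with vehicle, 91.6% and 87.2% with C29, 69.0% and 75.9% with 5-azadC, and 70.0% and 76.5% with both drugs. All 4 libraries with 5-azadC were below the other 4 by more than 10 points, and limma gave -16.8 points ± 2.86 (SE; unadjusted p = 0.00165, adjusted p = 0.173). Its close relative Nr1i2 (PXR) measured 67.1% and 74.1% with vehicle, 55.5% and 91.6% with C29, 53.0% and 66.7% with 5-azadC, and 52.6% and 56.5% with both. Here the groups overlapped (-14.9 points ± 8.72, SE; limma, adjusted p = 0.397). Nr1h4 also overlapped, at 80.7% ± 5.07 without and 72.0% ± 5.87 with 5-azadC over 5 cytosines.

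Ppara (PPARα, the fatty acid receptor) had the largest body difference of the receptors tested, over only 3 cytosines with 71 to 156 reads per library. It measured 75.8% and 68.6% with vehicle, 62.7% and 66.7% with C29, 61.3% and 27.6% with 5-azadC, and 62.4% and 35.8% with both drugs. The groups did not overlap, but the highest value with 5-azadC came within 1 point of the lowest C29 value. limma gave -21.7 points ± 9.64 (SE; adjusted p = 0.293). Ppard, which shares fatty acid ligands, held stretches in both directions. Its intron at chr17:28272655-28272776 averaged 43.7% without and 20.3% with 5-azadC over 5 cytosines, without overlap. The 2 cytosines of its start-site region measured 0% and 31.1% with vehicle, 26.0% and 35.0% with C29, 50% and 58.0% with 5-azadC, and 71.2% and 57.7% with both, so here all 4 libraries with 5-azadC were above the other 4, at 28 to 104 reads per library.

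The RXRs are the shared partners of these receptors. The body of Rxra, over 34 cytosines, measured 25.9% and 27.2% with vehicle, 25.7% and 22.3% with C29, 20% and 14.6% with 5-azadC, and 21.4% and 18.8% with both drugs. With and without 5-azadC, libraries did not overlap (-6.60 points ± 1.78, SE; limma, unadjusted p = 0.0124, adjusted p = 0.183). Rxrb was measured only at its starts, over 50 cytosines, at 6.29% ± 0.769 without and 3.72% ± 2.23 with 5-azadC, and the libraries overlapped. In the intron of Rxrg at chr1:167603474-167603512, 3 cytosines measured 16.9% and 14.1% with vehicle, 24.3% and 22.5% with C29, 0% and 2.21% with 5-azadC, and 0% in both combination libraries, with at least 153 reads in each library. All 4 libraries with 5-azadC were thus at or near 0% here, below the other 4.

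The NR4A receptors are orphans whose genes are induced within minutes by many signals. The body of Nr4a1 (NUR77), over 19 cytosines, measured 85.3% and 78.5% with vehicle, 76.5% and 73.4% with C29, 68.9% and 60.9% with 5-azadC, and 64.4% and 51.2% with both drugs. The groups were apart (-17.1 points ± 4.04, SE; limma, unadjusted p = 0.00725, adjusted p = 0.180). Its coding exon at chr15:101272919-101273025 was at 80.3% without and 65.1% with 5-azadC, again without overlap. The 37 cytosines upstream of its first start stayed below 1% in every library. Its whole start-site region, over 53 cytosines, measured 7.25% and 9.07% with vehicle and 11.3% and 8.01% with C29. It measured 16.5% and 12.8% with 5-azadC and 11.2% and 2.59% with both drugs. The groups overlapped there (1.89 points ± 2.44, SE; limma, adjusted p = 0.789). The start-site region of Nr4a3 (NOR1), over 51 cytosines, measured 9.13% and 11.0% with vehicle, 12.4% and 12.6% with C29, 8.60% and 8.72% with 5-azadC, and 7.66% and 7.55% with both. The groups were apart (-3.12 points ± 0.961, SE; limma, unadjusted p = 0.0232, adjusted p = 0.494), and the 8 cytosines of its printed intron window were apart as well, with 67.3% ± 8.08 without and 42.4% ± 8.38 with 5-azadC. A coding exon of Nr4a2 at chr2:57110141-57110251 was at 80.2% without and 69.8% with 5-azadC over 11 cytosines, without overlap, although the whole body of Nr4a2 did not differ in that direction (49.5% ± 7.64 and 50.9% ± 4.13).

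**Figure D5:**
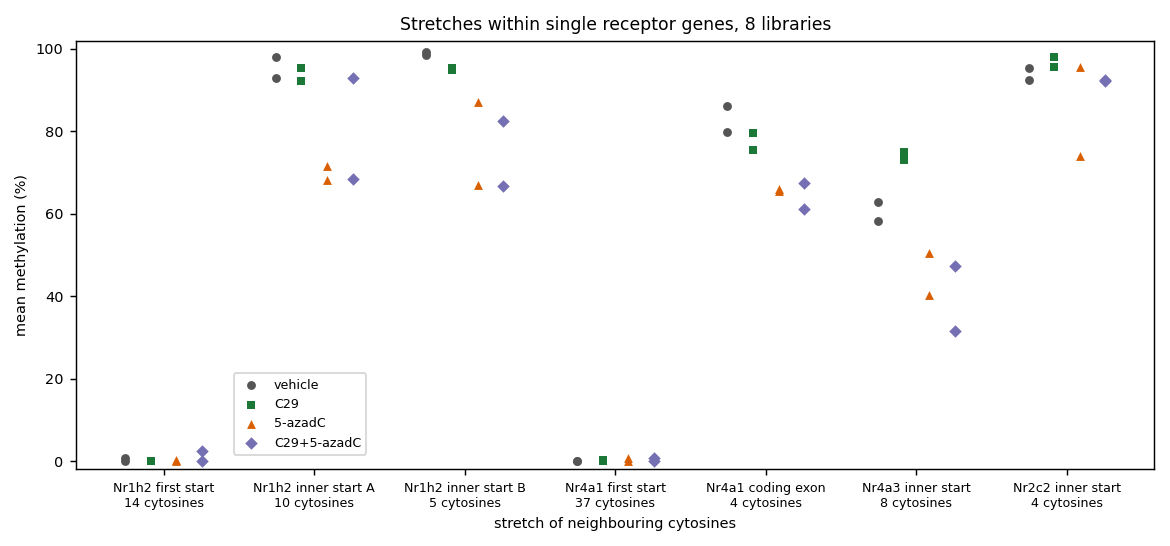
Mean methylation (%, y axis) of stretches of neighbouring cytosines within Nr1h2, Nr4a1, Nr4a3 and Nr2c2 (x axis, with the number of cytosines), with 1 point per library coloured by group. The first starts of Nr1h2 and Nr4a1 lie below 3% in all 8 libraries, and in inner start B of Nr1h2, the coding exon of Nr4a1 and the inner start of Nr4a3 the 4 libraries with 5-azadC lie below the other 4.

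Among the clock and ROR receptors, Rora (RORα, an activator of the circadian clock) carried 151 body cytosines, the most of any receptor gene. It measured 40.7% and 42.3% with vehicle, 39.7% and 37.8% with C29, 36.0% and 32.9% with 5-azadC, and 33.9% and 36.4% with both drugs. Libraries with 5-azadC lay below the others (-5.34 points ± 1.87, SE; limma, adjusted p = 0.230). Its intron at chr9:68864563-68864685 was at 88.0% without and 71.5% with 5-azadC, without overlap. Nr1d1 and Nr1d2, the REV-ERB repressors that oppose ROR, differed by -0.268 and -2.11 points in their bodies, with overlap.

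Hnf4a drives liver and gut gene programs. Its body, over 31 cytosines of which a part overlaps the antisense gene Hnf4aos, measured 60.5% and 62.7% with vehicle, 67.8% and 72.3% with C29, 52.2% and 57.1% with 5-azadC, and 48.0% and 54.0% with both drugs. Again the libraries did not overlap (-13.0 points ± 2.56, SE; limma, unadjusted p = 0.00327, adjusted p = 0.173). With the reads of all its cytosines summed, the means were 66.2% without and 57.2% with 5-azadC, and the libraries overlapped.

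Of the NR2 orphans, Nr2c2 was named in the study. Its start-site region, over 58 cytosines, measured 6.81% and 6.87% with vehicle, 7.22% and 7.04% with C29, 6.75% and 5.62% with 5-azadC, and 6.52% and 6.75% with both drugs. The groups were apart by less than 0.1 points at their nearest values, and limma gave -0.574 points ± 0.609 (SE; adjusted p = 0.747). Its region joined 54 unmethylated cytosines at the first starts, in stretches below 2% in every library, to the 4 cytosines of the inner window printed above, at 95.4% without and 88.6% with 5-azadC. Nr2e1 (TLX, a regulator of neural stem cells) measured 32.0% and 39% with vehicle, 41.9% and 33.5% with C29, 32.9% and 38.6% with 5-azadC, and 23.2% and 34.3% with both at its starts, with overlap (-4.35 points ± 3.93, SE; limma, adjusted p = 0.742). The body of Nr2e3, over 7 cytosines, measured 31.0% and 63.0% with vehicle, 37.2% and 57.0% with C29, 18.2% and 40.0% with 5-azadC, and 14.3% and 29.5% with both. The libraries of each group were far apart, the groups overlapped, and limma gave -21.6 points ± 10.1 (SE; adjusted p = 0.313). Nr2f1, Nr2f2 and Nr2f6 (the COUP-TF receptors) were at 2.08%, 0.761% and 4.55% at their starts over all 8 libraries.

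Of the steroid receptors, Esr2 (estrogen receptor β) was the tested start-site region with the largest difference upward. Its 4 cytosines measured 0.500% and 0% with vehicle, 0% and 14.1% with C29, 0% and 13.1% with 5-azadC, and 27.5% and 0% with both drugs. The values above 1% came from 1 library in each treated group, and limma gave 6.51 points ± 7.59 (SE; adjusted p = 0.764). Nr3c1 and Nr3c2 (the mineralocorticoid receptor) stayed at 1.59% or less at their starts in the means with and without 5-azadC. Their bodies and that of Esr2 differed by -12.9, -2.11 and -5.20 points, all with overlap.

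Libraries with and without 5-azadC overlapped in both tested regions of the remaining genes. The bodies of Rara and Rarg, the retinoic acid receptors, were at 22.0% ± 0.812 and 20.3% ± 2.98 without 5-azadC and at 18.2% ± 3.21 and 19.0% ± 2.95 with it. The bodies of Rorb (80.3% without and 77.4% with 5-azadC), Nr5a2 (52.9% and 46.0%), Nr2c1 (72.8% and 63.8%) and Nr2f2 (56.6% and 44.8%) were of high or middle methylation and lower with 5-azadC. The bodies of Nr1h3, Nr2f6 and Nr6a1 held little methylation, at 0.293%, 2.07% and 3.48% over all 8 libraries. Rxrb, Nr2f1 and Nr0b2 had no body cytosine, and Nr1h2, Hnf4g and Nr2c2 had 2 each and were not tested.

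Stretches of at least 3 cytosines no more than 200 bp apart numbered 156 in the receptor genes. All 4 libraries with 5-azadC lay below the other 4 in 9 of them (5.77%), beside 5.86% of the 55283 stretches of the whole series, inside or outside genes. They lay above in 0, beside 0.351%. The 9 stretches were in Nr1h2, Nr1i3, Nr4a1, Nr4a2, Nr4a3, Ppard and Rxrg and, with 2 stretches, Rora. All 9 were among the 86 stretches at 10% or above without 5-azadC (10.5%, beside 8.24% of all such stretches), and none was among the 70 below 10%.

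The study compared the treatment groups with methylKit. Its default logistic test on reads was run here on the reads summed per region, each treatment against vehicle, with calls at q below 0.01 that differed by 25 points or more. It called 0 of 28 receptor start-site regions for C29 (background 1.69%), 0 for 5-azadC (2.09%) and 0 for the combination (2.38%). In the gene bodies it called 0 of 33 for C29 (background 1.64%), 1 for 5-azadC (3.01%) and 2 for the combination (2.97%). The call for 5-azadC was Ppara, with a difference of -30.0 points in summed reads, and those for the combination were Nr2e3 at -27.8 points and Nr4a1 at -25.9 points. This test treats reads as independent. Without 5-azadC replicate 2 the Ppara difference was -14.2 points. That of Nr2e3 was -7.77 points without vehicle replicate 2 and -19.7 points without C29+5-azadC replicate 1. That of Nr4a1 was -23.5 points without vehicle replicate 1 and -18.6 points without C29+5-azadC replicate 2, and all 5 of these values miss the 25 points of a call.

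C29 had no receptor gene past either test. In limma, the 4 libraries with C29 against the 4 without gave 0 of 28 start-site regions (background 0.0640%) and 0 of 33 gene bodies (background 0.00585%) at an adjusted p below 0.05, and at an unadjusted p below 0.05 also 0 start-site regions (background 5.21%) and 0 gene bodies (background 5.81%). The libraries with C29 lay below all others in 0 start-site regions (background 0.925%) and 0 bodies (0.843%), and above all others in 1 start-site region, that of Nr2c1 (0.911%), and 0 bodies (0.884%). In Nr2c1 (testicular receptor 2) the mean was 0.947% with C29 and 0% without it. The bodies averaged 44.22% ± 4.437 with and 44.25% ± 3.592 without C29 (SD, n = 4). Of the 33 bodies 17 were lower, so the gene bodies split almost evenly. Each side held libraries with and without 5-azadC, so these SDs and the counts of libraries apart also include the 5-azadC difference. C29 alone averaged 48.02% ± 1.062 and vehicle 47.21% ± 1.907 (SD, n = 2).

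The largest C29 differences among tested bodies were in Nr5a1, Thra (thyroid hormone receptor α) and Nr4a1. Nr5a1, over 7 cytosines, measured 68.4% and 72.5% with vehicle, 73.5% and 97.1% with C29, 70.6% and 64.3% with 5-azadC, and 62.7% and 82.4% with both drugs, a C29 difference of 9.94 points ± 7.05 (SE; limma, adjusted p = 0.903). Thra measured 63.6% and 69.8% with vehicle, 68.7% and 53.6% with C29, 69.5% and 61.7% with 5-azadC, and 56.4% and 48.5% with both, a difference of -9.36 points ± 4.58 (SE; limma, adjusted p = 0.900). In both genes the C29 and other libraries overlapped, as in Nr4a1 (-7.04 points ± 4.04). A 5-azadC difference within each side can by itself make the sides overlap. In the body of Nr4a1, C29 alone (76.5% and 73.4%) lay below vehicle (85.3% and 78.5%). The combination (64.4% and 51.2%) overlapped 5-azadC alone (68.9% and 60.9%). Among tested start-site regions, the largest C29 differences were in Vdr, Esr2 and Thrb (thyroid hormone receptor β). Thrb measured 21.0% and 1.57% with vehicle, 3.79% and 6.40% with C29, 8.94% and 7.61% with 5-azadC, and 2.35% and 0% with both, so its mean difference of -6.64 points ± 4.49 (SE; limma, adjusted p = 0.846) was set mostly by 1 vehicle library.

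Whether the 2 drugs together differed from the sum of their single differences was tested as an interaction. limma called 0 of 28 start-site regions (background 0.0640%) and 0 of 33 bodies (background 0.00585%) at an adjusted p below 0.05. At an unadjusted p below 0.05 there were 0 start-site regions (background 5.51%) and 1 body, that of Nr4a2 (background 5.92%). Nr4a2 measured 57.1% and 54.3% with vehicle, 40.5% and 46.0% with C29, 47.5% and 49.8% with 5-azadC, and 56.9% and 49.4% with both drugs over 56 cytosines. Each drug alone gave lower values than vehicle, and the combination overlapped vehicle (interaction 16.9 points ± 5.47, SE; limma, unadjusted p = 0.0250, adjusted p = 0.780).

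The genes around the receptors were read in 3 lists, coregulators, genes of ligand handling and target genes. At the starts 14 of 15 coregulators, 10 of 19 ligand handling genes and 17 of 29 target genes were tested, and in the bodies 12, 17 and 21. limma called 0 of them for 5-azadC or C29 in either region. Among coregulators, libraries with 5-azadC lay below all others in 4 of 12 bodies, which included Ncoa2, Crebbp and Nrip1. Among target genes they lay below in 5 of 21 bodies, which included Abca1, Arntl, Cyp7a1 and Sgk1, and among ligand handling genes in 0 of 17. The share over all gene bodies was 12.6%. The median 5-azadC difference in the bodies was -2.69 points for coregulators, -0.641 for ligand handling genes and -3.01 for target genes, beside -3.13 over all gene bodies. At the starts it was -0.486, 2.10 and -0.306 points.

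Large 5-azadC differences at the starts of these lists were in genes with wide spread or few cytosines. They were -5.84 points ± 4.80 (SE) in Ncoa3 (a p160 coactivator) and -3.39 ± 1.99 in Hdac3 among coregulators. Among ligand handling genes they were 15.4 points ± 11.0 in Cyp27b1, which makes active vitamin D, 11.9 ± 11.3 in Crabp1, a retinoic acid binding protein, and 5.47 ± 7.57 in Aldh1a2, which makes retinoic acid. Among target genes they were -18.7 points ± 4.63 in Scnn1a, a sodium channel subunit, -11.7 ± 5.81 in Srebf1, a liver X receptor target, and 3.72 ± 1.15 in Cpt1a, a PPARα target. The 3 cytosines of Scnn1a measured 0% and 10.6% with vehicle, 23.5% and 40.7% with C29, and 0% in all 4 libraries with 5-azadC (limma, unadjusted p = 0.0102, adjusted p = 0.418). The logistic test on reads called Cyp27b1 lower (-31.3 points) and Scnn1a higher (28.3 points) at the start with C29 alone. These were 1 of 10 ligand handling genes and 1 of 17 target genes, beside 1.69% of all genes. With the combination it called the body of Cyp27a1 lower (-44.9 points), 1 of 17 ligand handling genes, beside 2.97% of all gene bodies.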

How the data were processed

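RRBS of 8 libraries from NIC-5231 tumors was used, and libraries were assigned to groups and replicates by their sample titles. The authors deposited, for each CpG cytosine and strand, a methylated fraction and a read count, and neither was normalized. The submitters' processing notes name FastQC 0.11.8, Trim Galore 0.4.1, Bismark 0.20.0, methylKit 1.7.0 and mm10/GRCm38. All 769724 cytosines with at least 5 reads in all 8 libraries lay at a CpG of GRCm38. The product of fraction and count was within 0.01 of a whole number of methylated reads for 100.0% of cytosines in each library.

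Cytosines with at least 10 reads in all 8 libraries were assigned to start-site regions or bodies with GENCODE M21, so a region can join several starts of a gene, inner starts included. The mean percent per region with at least 3 cytosines was fitted with limma 3.58.1 (trend) in R 4.3.3 over 14058 start-site regions and 17086 bodies, with contrasts for 5-azadC, C29 and their interaction and Benjamini-Hochberg adjustment. methylKit's default logistic likelihood-ratio test, rewritten in Python 3.11.15 with SciPy 1.17.1, was run on summed reads of each treatment against vehicle. edgeR 4.0.16 was an alternative. Scripts were tested on simulated data. Standard errors are from limma, and SDs are over libraries. Replicate numbers were checked for pairing by the correlation of deviations and did not pair the libraries.

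The receptor genes, their classes and the lists of coregulators, ligand handling and target genes were chosen with earlier results of these data known. Values in all libraries were given for genes called in any test, for the 5 largest 5-azadC and 3 largest C29 differences among tested regions, for the 5 most methylated start-site regions, for Vdr and Nr2c2, and, as ranges, for the 5 least methylated. Of each list the 3 genes with the largest 5-azadC difference at the start were taken, and some results of the lists are not reported here. Other genes and stretches named for groups without overlap, unadjusted p-values or calls in the lists were chosen after their values were seen. Alternatives covered coverage, strands, windows, transcripts, cytosines per region, weighting, the replicate block, the test and leaving out each library, and those on groups without overlap and on the members' mean were added after seeing the data. Expression data were not used here.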

Additional observations from a re-analysis of the deposited data

Results flagged for a closer look

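In 4 regions, of 28 start-site regions and 33 bodies tested, the 5-azadC difference ran in opposite directions without and with C29. Compared were 5-azadC with vehicle and C29+5-azadC with C29, with the libraries of each pair of groups apart. The share over all genes was not computed. Since 2 libraries are often apart from 2 others without any drug difference, the count does not show reversals. In the start-site region of Pparg, the differences were -9.45 points without C29 and 6.75 points with it (interaction 16.2 points; limma, unadjusted p = 0.0962, adjusted p = 0.849). In the start-site region of Rora they were -2.045 and 2.255 points (interaction 4.30 points; limma, unadjusted p = 0.0692, adjusted p = 0.849), at a mean level of 3.02%. In the body of Pparg, with 3 cytosines, they were 24.15 and -32.55 points (interaction -56.7 points; limma, unadjusted p = 0.0572, adjusted p = 0.833). The body of Nr4a2, over 56 cytosines, gave -7.05 and 9.9 points (interaction 16.9 points; limma, unadjusted p = 0.0250, adjusted p = 0.780). None of the 4 interactions passed the adjusted test.

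Nr0b2 (SHP, a corepressor receptor without a DNA-binding domain) had no cytosine with 10 reads in all 8 libraries, but cytosines of any depth were listed for it. Over the 2 to 7 cytosines listed per library, vehicle measured 61.2% (exact 95% interval 54.4% to 67.7%) and 100% (94.2% to 100%), and C29 measured 39.3% (26.5% to 53.2%) and 59.1% (36.4% to 79.3%). The 5-azadC libraries measured 67.8% (59.6% to 75.2%) and 21.7% (10.9% to 36.4%), and the combination 63.1% (55.3% to 70.4%) and 58.8% (48.6% to 68.5%). These values rest on 22 to 219 reads, differ in the cytosines covered, and are above the 0.329% of the unmethylated control.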

How the results depend on the processing

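Of 451 alternative values, 387 were labelled the same, 51 moved, 13 single-gene logistic calls were lost and 0 reversed. A count was the same when equal to the reported one or within a fixed ratio of it. A mean was the same within the SD of the libraries without 5-azadC, and a single gene when it kept its direction and side of the threshold. limma counts of receptor genes stayed at 0 under each alternative of test, coverage and region and without each library (0 to 0), except at an unadjusted p below 0.05 (2 start-site regions and 6 bodies for 5-azadC, 1 body for the interaction). For the alternatives below and for single libraries left out, the shares over all genes are not reported here. These counts therefore do not set the receptor genes apart from other genes. Logistic counts at the starts, 0 as reported, were as follows. For C29 they were 1 at 5 reads, 1 with protein-coding transcripts and 1 at 10 points. For 5-azadC they were 2 at 5 reads, 1 at 20 reads, 1 with protein-coding transcripts, 2 with at least 1 cytosine and 3 at 10 points. For the combination they were 1 at 5 reads, 1 at 20 reads, 1 with 1000 bp upstream, 1 with at least 1 cytosine and 4 at 10 points. In the bodies, C29 gave 8 at 10 points. 5-azadC, at 1 as reported, gave 0 at 20 reads, 0 with 500 bp downstream added to the start-site region, 0 with at least 10 cytosines, 0 with overdispersion, 0 by limma and 13 at 10 points. The combination, at 2 as reported, gave 1 at 5 reads, 1 at 20 reads, 1 with both strands summed, 0 with protein-coding transcripts, 1 with at least 10 cytosines, 0 with overdispersion, 0 by limma and 7 at 10 points. The overdispersion test of 2 libraries against 2 also called 0 regions on simulated data and says nothing here. Groups without overlap fell at the starts from 3 to 1 at 20 reads, 1 with both strands summed, 1 with protein-coding transcripts and 1 with summed reads, and in the bodies from 7 to 2 at 20 reads and 1 with summed reads. The members' body difference was -4.54 points at 20 reads and -4.34 with at least 10 cytosines. The causes were not tested.

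Without each library in turn, the logistic counts were 0 to 1 at the starts for C29, 5-azadC and the combination, and 0 to 3, 2 to 3 and 1 to 3 in the bodies. The highest body count for C29 was without C29 replicate 1, the 5-azadC count was 3 without vehicle replicate 2 or 5-azadC replicate 2, and the combination count was 1 without vehicle replicate 2. The members' mean difference for 5-azadC was -1.86 to -1.05 points at the starts and -7.35 to -6.38 in the bodies. Replicate numbers did not pair the libraries, since deviations of same-numbered libraries correlated at -0.0167 to 0.0396 at the starts and -0.0140 to 0.0309 in the bodies over 6 pairs of groups. With the replicate block, limma counts were 0 and logistic counts in the bodies were 0, 1 and 2, with no call gained or lost.

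With 2 libraries per group and spread beyond read sampling, no receptor difference passed limma, up to -21.7 points in the body of Ppara. limma called only 0.00585% of all bodies for 5-azadC, so a missing call does not show an absent difference. Bodies with more cytosines also missed it, such as Nr4a1 (-17.1 points ± 4.04, SE) and Hnf4a (-13.0 points ± 2.56). The smallest detectable difference was not estimated. The bodies of Ppara, Pparg and Nr3c1, with 3 cytosines each, had standard errors of 9.64, 11.7 and 14.4 points.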
